A study of Mus musculus with 11 samples.

Results

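The 10 genes described here encode G protein-coupled receptors that act on insulin secretion: *Glp1r*, *Gipr*, *Gcgr*, *Ffar1*, *Chrm3*, *Adra2a*, *Sstr3*, *Adora2b*, *Hcar2* and *Oxtr*. They were chosen by name, with earlier results of these data known, and all 10 were found among the 34728 genes of the deposited table. The RNA came from β-cells sorted by GFP from dispersed islets of male mice of strain C57BL/6 x 129SV, 8 weeks old. All mice carried RIP-Cre, a Cre transgene under the insulin promoter of the rat, and a *Rosa26* GFP reporter, so GFP marks any cell in which this promoter has been active. The 3 WT libraries came from Raptor+/+ littermates that carried the same Cre and reporter. The 4 libraries labelled KO came from Raptor-/- mice with these transgenes (diabetic βRapKOGFP), which lack the mTOR complex 1 component Raptor in β-cells. The 4 libraries labelled KI came from mice of the mutant genotype that had received implanted insulin for 4 weeks (euglycemic βRapKOGFP). Both mutant groups differed from WT in *Raptor*, the diabetic group also in blood glucose and the euglycemic group also in the implanted insulin. In each comparison with WT these cannot be told apart. The comparison between the mutant groups addresses blood glucose at the same genotype, where the implanted insulin itself cannot be told apart from normal glucose.

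These receptors set how strongly glucose triggers insulin release. GLP-1, GIP and glucagon bind class B receptors (*Glp1r*, *Gipr*, *Gcgr*) that couple to Gs, raise cAMP and amplify secretion, and the adenosine receptor encoded by *Adora2b* also couples to Gs. Long-chain fatty acids act through *Ffar1*, acetylcholine through the muscarinic receptor *Chrm3* and oxytocin through *Oxtr*, all of which couple to Gq and phospholipase C. Noradrenaline through *Adra2a*, somatostatin through *Sstr3* and β-hydroxybutyrate or nicotinic acid through *Hcar2* signal by Gi and lower cAMP.

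The stretches just upstream of the transcription start are printed for 5 of the genes, so that the upstream sequence of *Adora2b*, which passed the test described below, can be read beside that of 4 genes that did not pass it, with a mean below WT (*Glp1r*, *Ffar1*) or above WT (*Gcgr*, *Oxtr*) in both mutant groups. RefSeq (GRCm38.p6) gave a promoter entry for 8 of the 10 genes. There was no entry for *Gipr* and *Hcar2*, which are named only. Each line runs 5′ to 3′ on the strand of the gene. It ends at the base before the start given by GENCODE or RefSeq, whichever lies farther upstream. Capitals mark matches to the letters searched.
Adora2b, chr11:62248734-62248983, plus strand: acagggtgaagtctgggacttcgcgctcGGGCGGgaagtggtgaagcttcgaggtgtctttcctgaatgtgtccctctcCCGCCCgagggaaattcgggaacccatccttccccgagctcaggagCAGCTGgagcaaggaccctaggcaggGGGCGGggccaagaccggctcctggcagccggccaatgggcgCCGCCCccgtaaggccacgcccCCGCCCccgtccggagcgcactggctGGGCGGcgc
Glp1r, chr17:30901617-30901816, plus strand: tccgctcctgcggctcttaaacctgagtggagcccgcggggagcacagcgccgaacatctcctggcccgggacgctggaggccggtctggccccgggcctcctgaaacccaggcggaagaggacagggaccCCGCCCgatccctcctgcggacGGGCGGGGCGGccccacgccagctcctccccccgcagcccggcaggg
Ffar1, chr7:30861565-30861720, minus strand: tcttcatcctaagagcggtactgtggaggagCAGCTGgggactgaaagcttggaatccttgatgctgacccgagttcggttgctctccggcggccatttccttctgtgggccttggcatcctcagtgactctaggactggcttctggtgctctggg
Gcgr, chr11:120530477-120530698, plus strand: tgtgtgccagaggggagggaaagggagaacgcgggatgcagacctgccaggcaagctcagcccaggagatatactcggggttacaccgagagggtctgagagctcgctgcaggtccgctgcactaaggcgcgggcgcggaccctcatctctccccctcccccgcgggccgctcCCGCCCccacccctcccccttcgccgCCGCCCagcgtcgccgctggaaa
Oxtr, chr6:112489944-112490075, minus strand: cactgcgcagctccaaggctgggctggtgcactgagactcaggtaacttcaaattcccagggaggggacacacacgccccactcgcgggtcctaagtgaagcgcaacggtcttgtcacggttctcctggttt
Both strands were searched for the letters of named motifs. The GC box was searched as GGGCGG and the E-box as CANNTG. The cAMP response element (CRE) was searched as TGACGTCA, its half-site, which lies within it, as TGACG and the TATA box as TATAAA. The *Adora2b* stretch of 250 bases (69.6% G or C) held 6 GC boxes and 1 E-box. *Glp1r* (200 bases, 75.0%) held 3 GC boxes, of which 2 share a base, *Gcgr* (222 bases, 69.8%) held 2, *Ffar1* (156 bases, 57.1%) held 1 E-box, and *Oxtr* (132 bases, 59.1%) held none of the letters. Of 32851 RefSeq promoters, 32.7% held a GC box in a window of 250 bases, 24.6% in 200 and 28.8% in 222, and 66.2% held an E-box in 250 bases and 50.6% in 156. Each window began 250 bases upstream of the RefSeq start, so the shorter windows stop short of that start. None of the 5 stretches held the CRE, its half-site or the TATA letters, and of all promoters 1.55% held the CRE in 250 bases. These matches describe letters only and say nothing about a factor.

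Expression is given as FPKM, fragments per kilobase of transcript scaled to the mapped total, which allows levels of different genes to be compared. Depth inferred from the values was 9506156 to 16659222 fragments per library. *Rptor*, the gene deleted, had an FPKM of 0.948, 1.36 and 1.79 in the WT, 0.937, 0.831, 0.507 and 0.485 in the diabetic and 0.423, 0.481, 0.623 and 0.438 in the euglycemic libraries (replicates in number order, here and below). All mutant libraries lay below all WT libraries (two-sided exact permutation test with both mutant groups together, p = 0.00606, the lowest this test can give). Summed FPKM of 10 β-cell markers was 157613 to 191511 in WT, 138230 to 206534 in diabetic and 117287 to 202220 in euglycemic libraries, nearly all of it *Ins1*, *Ins2* and *Iapp*. Of the 10 markers 2 fell in both mutant groups, *Slc2a2* and *Slc30a8*, and the median log2 fold change of the 10 was −0.51 in diabetic and −0.54 in euglycemic βRapKOGFP. Summed markers of δ-cells (4 genes: 1176 to 2515, 4942 to 12262 and 4864 to 13953 in the same order) and pancreatic polypeptide cells (2 genes: 513 to 1107, 3674 to 12979.7 and 4984 to 14238) were higher in every mutant library, the δ-cell sum being nearly all *Sst* (*Hhex* and *Ghsr* overlapped between groups). The sums of acinar (10 genes: 3.48 to 36.4, 15.8 to 2258 and 14.7 to 4025) and duct markers (6 genes: 367 to 928, 638 to 922 and 591 to 1188) overlapped between groups. The duct sum was nearly all *Krt18* and *Krt7*, which overlapped between groups, as did *Cftr*. The other duct markers were higher in every mutant library than in every WT library. *Krt19* was at 0.505 to 0.853 FPKM in WT and 2.54 to 16.5 in the mutant libraries. *Spp1* was at 2.93 to 6.00 and 11.7 to 34.8, and *Sox9* at 0.0176 to 0.178 and 0.192 to 1.95. Endothelial markers (8 genes; 0.0487 to 1.90, 10.2 to 52.6 and 0.0436 to 2.84) were highest in diabetic libraries, mesenchymal markers (7 genes; 0 to 0.496, 0.563 to 18.7 and 0 to 0.806) were higher there than in WT and overlapped between the mutant groups, and *Cdh5* was listed at 0 in WT. The part of these cells in the results below was not tested beyond the values given beside them, and fewer cells of a type cannot be told apart from less RNA per cell. Euglycemic replicate 4 stood apart, with a median correlation of 0.883 with the other libraries over the genes tested, against 0.923 to 0.945 for the other 10.

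In WT β-cells, *Glp1r* was the receptor gene with the highest mean level, 109 ± 43.6 FPKM (SD, n = 3), followed by *Adora2b* (67.7 ± 43.0), *Adra2a* (47.1 ± 12.5), *Sstr3* (31.1 ± 15.3) and *Gipr* (24.1 ± 7.97). *Gcgr* (14.4 ± 1.83), *Ffar1* (11.4 ± 1.26) and *Hcar2* (10.2 ± 5.28) were intermediate, and *Chrm3* (1.74 ± 0.238) and *Oxtr* (0.393 ± 0.330) were lowest. WT libraries of neighbours in this order overlapped except between *Gcgr* and *Ffar1*, *Hcar2* and *Chrm3*, and *Chrm3* and *Oxtr*, so the order of the other neighbours was within their spread. Among the 11251 genes tested, the WT mean of *Glp1r* lay at percentile 97.4, that of *Gipr* at 85.4, that of *Chrm3* at 20.7 and that of *Oxtr* at 1.46. *Glp1r* was also the highest and *Chrm3* the lowest by mean in both mutant groups. The second place passed from *Adora2b* in WT to *Adra2a* in diabetic βRapKOGFP (50.6 ± 8.51, n = 4) and *Sstr3* in euglycemic βRapKOGFP (36.2 ± 11.1, n = 4), and *Gcgr* moved from the sixth place to the fourth in both. These places are by mean, and single libraries can change them. Without WT replicate 1 the WT mean of *Adora2b* (43.9) was below that of *Adra2a* (51.5). Without euglycemic replicate 2 the euglycemic mean of *Gcgr* (21.9) was below that of *Adora2b* (24.3).

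**Figure D1:**
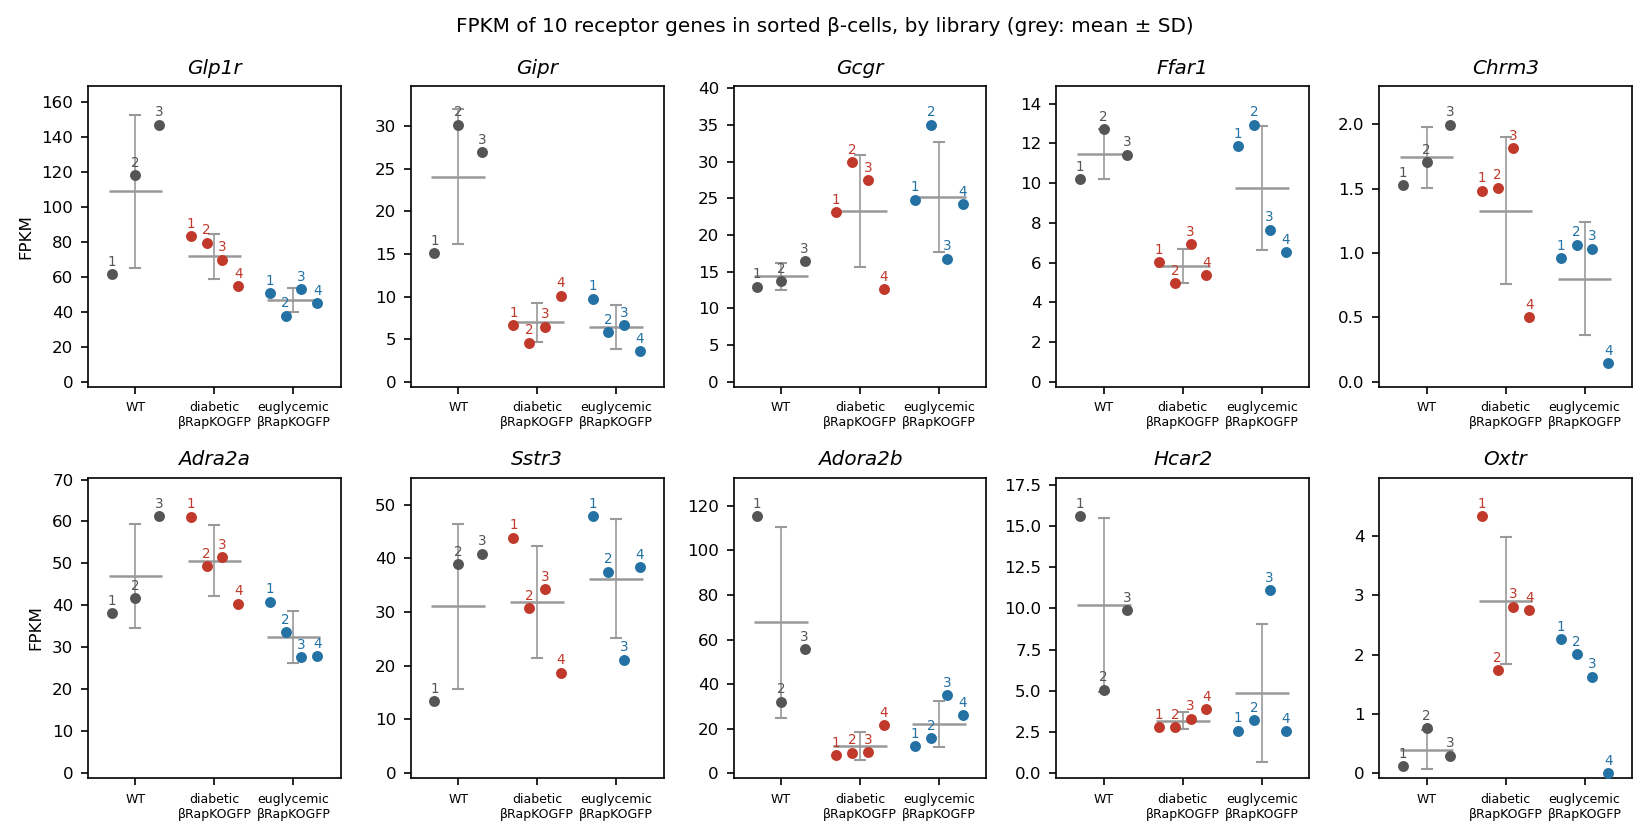
FPKM (vertical axes, from 0) of each receptor gene in the 3 WT (grey), 4 diabetic (red) and 4 euglycemic (blue) libraries, numbered by replicate, with the mean ± SD in grey, not drawn for *Oxtr* in euglycemic libraries where replicate 4 is listed at 0. The *Gipr* points of all mutant libraries lie below all WT points, and the WT replicate with the highest *Adora2b* and *Hcar2* (replicate 1) is the lowest WT point for the other 8 genes.

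*Gipr* and *Adora2b* fell in diabetic βRapKOGFP, and *Gipr* fell in euglycemic βRapKOGFP. The other receptor genes did not pass the test, which asked for an adjusted p of at most 0.05 (limma on log2(FPKM + 1), adjusted over all genes tested) and a change of at least 1.5-fold. The 2 of 10 genes called in diabetic against WT stand beside 0.969% of all genes tested (0.498% called as lower), and the 1 of 10 in euglycemic against WT beside 0.551% (0.196% called as lower). The 10 genes were chosen with earlier results of these data known. Counts set beside such shares, here and below, therefore describe the 10 genes and do not test them as a set. At an unadjusted p of at most 0.05 4 receptor genes were lower and 1 higher in diabetic against WT, beside 5.74% and 6.15% of all genes, and 6 were lower and 1 higher in euglycemic against WT, beside 6.52% and 7.33% of all genes. Libraries did not overlap for 4 genes lower in diabetic βRapKOGFP (*Gipr*, *Ffar1*, *Adora2b*, *Hcar2*; 6.88% of all genes) and 1 higher (*Oxtr*; 6.67%). In euglycemic βRapKOGFP they did not overlap for 3 genes lower (*Glp1r*, *Gipr*, *Chrm3*; 5.02%) and 1 higher (*Gcgr*; 5.91%). The median log2 fold change of the 10 genes was −0.40 in diabetic and −0.58 in euglycemic βRapKOGFP, beside 0.0063 and −0.010 over all genes tested. *Oxtr* reached 1 FPKM in no WT library and so entered the test only through the mutant libraries. Both comparisons share the 3 WT libraries.

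*Gipr*, the receptor of the incretin GIP, fell in both mutant groups. The gene (ENSMUSG00000030406) lies on the minus strand at chr7:19156061-19166127 of GRCm38. Its FPKM was 15.1, 30.2 and 27.0 in WT, 6.67, 4.58, 6.46 and 10.1 in diabetic and 9.74, 5.84, 6.61 and 3.57 in euglycemic libraries. All 8 mutant libraries were below the lowest WT library, WT replicate 1, and *Gipr* was the only receptor gene whose mutant libraries as a whole did not overlap WT (of all genes tested 1.78% were lower and 1.9% higher in this way). Mean FPKM was 3.47-fold lower in diabetic βRapKOGFP (6.95 ± 2.30, n = 4), with a log2 fold change of −1.64 (SE 0.32, limma adjusted p = 0.0327). It was 3.74-fold lower in euglycemic βRapKOGFP (6.44 ± 2.55, n = 4), with a log2 fold change of −1.76 (SE 0.32, limma adjusted p = 0.0283). With both mutant groups together the log2 fold change was −1.70 (SE 0.28, limma adjusted p = 0.0122), in a comparison in which 1.05% of all genes were called, 0.516% as lower. Between the mutant groups *Gipr* differed by 0.12 (95% confidence interval −0.52 to 0.76). Leaving out 1 library at a time kept the direction in every fit against WT, with a log2 fold change of −1.94 to −1.46 in diabetic and −2.06 to −1.55 in euglycemic βRapKOGFP. The adjusted p was above 0.05 in 5 of these 11 fits in each comparison (without WT replicates 2 or 3 or diabetic replicates 1, 2 or 3 for diabetic, and without WT replicates 2 or 3, diabetic replicate 3 or euglycemic replicates 2 or 3 for euglycemic), up to 0.150 and 0.197. It was also above 0.05 with no filter on low values (0.132 in diabetic and 0.137 in euglycemic βRapKOGFP), in diabetic βRapKOGFP with TPM (0.0595) and in euglycemic βRapKOGFP with only the groups compared (0.0913). In all, the call was lost in 8 of 20 alternatives in each comparison.

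*Glp1r*, which encodes the receptor of the incretin GLP-1 (ENSMUSG00000024027, chr17:30901817-30940791, plus strand), had an FPKM of 61.4, 118 and 147 in WT. It was 83.1, 79.5, 69.9 and 54.6 in diabetic and 50.6, 37.7, 53.0 and 44.9 in euglycemic libraries. WT replicate 1 lay inside the diabetic range, whereas all euglycemic libraries were below all WT and all diabetic libraries. Mean FPKM in euglycemic βRapKOGFP (46.6 ± 6.79, n = 4) was 2.34-fold below WT. The log2 fold change of −1.13 (SE 0.28, unadjusted p = 0.00122 from limma) did not pass the adjustment (adjusted p = 0.117). Leaving out 1 library gave −1.49 (adjusted p = 0.0117, without WT replicate 1, the one such fit past the test) to −0.87 (adjusted p = 0.495, without WT replicate 3). In diabetic against WT the log2 fold change was −0.52 (SE 0.28, limma adjusted p = 0.489).

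*Gcgr* encodes the glucagon receptor (ENSMUSG00000025127, chr11:120530699-120538986, plus strand). Its FPKM was 13.0, 13.7 and 16.4 in WT, 23.1, 29.9, 27.5 and 12.6 in diabetic and 24.8, 35.1, 16.8 and 24.2 in euglycemic libraries. Thus 7 of 8 mutant libraries were above the highest WT library, and diabetic replicate 4 was below the lowest. The log2 fold change was 0.60 (SE 0.29, limma adjusted p = 0.449) in diabetic and 0.73 (SE 0.29, adjusted p = 0.293) in euglycemic βRapKOGFP, neither past the test. Summed FPKM of 8 α-cell markers was 1088 to 2494 in WT, 4152 to 14959.7 in diabetic and 4953 to 23923 in euglycemic libraries. Within each mutant group the library with the highest α-cell sum (diabetic replicate 4 and euglycemic replicate 3) had the lowest *Gcgr*, whereas in WT replicate 3 had both the highest sum (2494) and the highest *Gcgr*.

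*Ffar1* encodes GPR40, the receptor of long-chain fatty acids (ENSMUSG00000044453, a single exon at chr7:30857390-30861564, minus strand). FPKM was 10.2, 12.7 and 11.4 in WT, 6.01, 4.97, 6.91 and 5.38 in diabetic and 11.8, 13.0, 7.65 and 6.53 in euglycemic libraries. Since the gene is a single exon these values could be read back as whole fragments, 585, 631 and 647 in WT, 270, 203, 399 and 279 in diabetic and 824, 803, 480 and 259 in euglycemic libraries. All diabetic libraries were below all WT libraries, while euglycemic libraries split into 2 within or above the WT range (replicates 1 and 2) and 2 below (replicates 3 and 4). Mean FPKM was 1.97-fold lower in diabetic βRapKOGFP than in WT, with a log2 fold change of −0.87 (SE 0.23, limma unadjusted p = 0.00230, adjusted p = 0.118). Without euglycemic replicate 4, which enters this comparison only through the shared spread, the adjusted p was 0.0453 at the same fold change, and leaving out any other library gave up to 0.328, never under 0.05. In euglycemic against WT the log2 fold change was −0.26 (SE 0.23, limma adjusted p = 0.644).

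The related short-chain fatty acid receptors, given here after their values were seen, had other levels. *Ffar2* was 7.73, 7.92 and 9.69 in WT, 13.9, 8.37, 10.4 and 5.68 in diabetic and 17.8, 22.6, 9.22 and 16.1 in euglycemic libraries, with a log2 fold change of 0.83 in euglycemic against WT (limma adjusted p = 0.254). *Ffar3* stayed at or below 1.24 FPKM in all libraries and was listed at 0 in diabetic replicates 3 and 4. Neither passed the test in any comparison.

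*Hcar2* encodes the Gi-coupled receptor of β-hydroxybutyrate and nicotinic acid (ENSMUSG00000045502, a single exon at chr5:123863570-123865499, minus strand). Its FPKM was 15.6, 5.06 and 9.90 in WT, 2.79, 2.81, 3.30 and 3.88 in diabetic and 2.58, 3.21, 11.1 and 2.56 in euglycemic libraries. These corresponded to 414, 116 and 259 fragments in WT, 58, 53, 88 and 93 in diabetic and 83, 92, 322 and 47 in euglycemic libraries. All diabetic libraries were below all WT libraries, and of the euglycemic libraries only replicate 3 reached the WT range. The log2 fold change was −1.31 (SE 0.41, limma adjusted p = 0.206) in diabetic and −1.03 (SE 0.41, adjusted p = 0.294) in euglycemic βRapKOGFP. With both mutant groups together it was −1.17 (adjusted p = 0.202), and leaving out 1 library gave −1.55 to −0.82 with an adjusted p of 0.0319 to 0.562, below 0.05 only without euglycemic replicate 3, the mutant library that reached the WT range (−1.38). *Hcar2* is also known from immune cells. Summed FPKM of 9 immune markers was 41.5 to 56.2 in WT, 75.2 to 198 in diabetic and 56.4 to 125 in euglycemic libraries, and *Ptprc* was listed at 0 in all libraries but diabetic replicate 1. Most of this sum was *C1qa* (33.3 to 41.4, 74.3 to 196 and 53.8 to 124 in the same order), while the macrophage markers *Adgre1*, *Csf1r* and *Cd68* were at most 1.23 FPKM in WT (*Cd68* in replicate 1) and 2.52 in any library. The myeloid gene *Lyz2* was at 0 to 0.287 FPKM in WT, 0 to 59.4 in diabetic (highest in replicate 1) and 0 to 3.07 in the euglycemic libraries. *Cd79a* was at 20.1, 8.20 and 9.22 FPKM in WT and at 0 to 1.10 in the mutant libraries, but its partner in the B-cell receptor, *Cd79b*, and the T-cell marker *Cd3e* were listed at 0 in all 11 GFP-sorted libraries.

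*Adora2b*, which encodes the A2B adenosine receptor (ENSMUSG00000018500, chr11:62248984-62266453, plus strand), fell in diabetic βRapKOGFP. Its FPKM was 115, 32.0 and 55.7 in WT, 8.11, 9.20, 9.41 and 21.5 in diabetic and 12.1, 15.7, 35.0 and 25.9 in euglycemic libraries. Every diabetic library was below every WT library, whereas euglycemic replicate 3 exceeded WT replicate 2. Mean FPKM was 5.61-fold lower in diabetic (12.1 ± 6.35, n = 4) than in WT libraries (67.7 ± 43.0, n = 3), with a log2 fold change of −2.31 (SE 0.45, limma adjusted p = 0.0327). In euglycemic βRapKOGFP (22.2 ± 10.3, n = 4) it was 3.05-fold lower, with a log2 fold change of −1.49 (SE 0.45), which did not pass the test (limma adjusted p = 0.178). With both mutant groups together the gene was called (−1.90, SE 0.40, limma adjusted p = 0.0423), a call lost in 11 of 19 alternatives. WT replicate 1 was the highest of all libraries, and without it the log2 fold change in diabetic βRapKOGFP was −1.83 with an adjusted p of 0.130, and the means differed 3.64-fold (1.98-fold in euglycemic βRapKOGFP). The adjusted p was also above 0.05 without WT replicate 3 (0.113) or diabetic replicate 1 (0.0980), 2 (0.0756) or 3 (0.0987), at fold changes of −2.35 to −2.17, and with no filter on low values (0.149).

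*Oxtr*, the oxytocin receptor gene (ENSMUSG00000049112, chr6:112473683-112489943, minus strand), was low in WT. FPKM was 0.121, 0.759 and 0.298 in WT, about 8, 43 and 19 fragments. It was 4.33, 1.74, 2.81 and 2.75 in diabetic libraries (about 223, 81, 186 and 164 fragments) and 2.26, 2.01, 1.63 and 0 in euglycemic libraries (about 180, 143, 117 and 0). All mutant libraries but euglycemic replicate 4, where the gene was listed at 0, were above all WT libraries. At the depth inferred for that library, 0 fragments allow up to 0.0659 FPKM (3 fragments, counting error only). In diabetic βRapKOGFP mean FPKM was 2.91 ± 1.07 (n = 4), with a log2 fold change of 1.47 (SE 0.37, limma adjusted p = 0.0978). Its size depended on the scale, at 2.76 with a pseudocount of 0.1 and 2.14 with TPM. Since the gene entered the test only through mutant libraries, its values are a description. The euglycemic comparison gave 0.72 (SE 0.37, limma adjusted p = 0.410). Among diabetic libraries, replicate 1 had both the highest *Oxtr* and the highest endothelial sum (52.6, beside 10.2 to 17.0 in the other 3), while euglycemic replicates 1 to 3 had *Oxtr* above 1.6 FPKM at endothelial sums of 0.464 to 2.84.

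*Chrm3*, the M3 muscarinic receptor gene (ENSMUSG00000046159, chr13:9875486-10360847, minus strand), was at 1.53, 1.70 and 2.0 FPKM in WT. It was at 1.48, 1.51, 1.81 and 0.502 in diabetic and 0.958, 1.06, 1.03 and 0.144 in euglycemic libraries. All euglycemic libraries were below all WT libraries, and in each mutant group replicate 4 was the lowest library. The log2 fold change in euglycemic βRapKOGFP was −0.64 (SE 0.26, limma adjusted p = 0.301) and that in diabetic βRapKOGFP −0.27 (SE 0.26, adjusted p = 0.754). At its level, 9 to 169 fragments lay behind each value.

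*Adra2a*, the α2A adrenergic receptor gene (ENSMUSG00000033717, chr19:54044151-54048982, plus strand), was at 38.1, 41.8 and 61.3 FPKM in WT. It was at 61.2, 49.4, 51.5 and 40.4 in diabetic and 40.9, 33.6, 27.6 and 27.9 in euglycemic libraries. Diabetic and WT libraries overlapped, and 3 of 4 euglycemic libraries were below both. The log2 fold change was 0.12 in diabetic (SE 0.22, limma adjusted p = 0.886) and −0.51 in euglycemic βRapKOGFP (SE 0.22, adjusted p = 0.337). *Sstr3*, a somatostatin receptor gene (ENSMUSG00000044933, chr15:78537008-78544685, minus strand), was at 13.4, 39.0 and 40.9 FPKM in WT, 43.9, 30.7, 34.2 and 18.7 in diabetic and 47.9, 37.5, 21.2 and 38.3 in euglycemic libraries. Its groups overlapped throughout. The log2 fold change was 0.13 (95% confidence interval −0.72 to 0.98) in diabetic and 0.31 (−0.54 to 1.16) in euglycemic βRapKOGFP, and without WT replicate 1 it was −0.38 and −0.19.

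**Figure D2:**
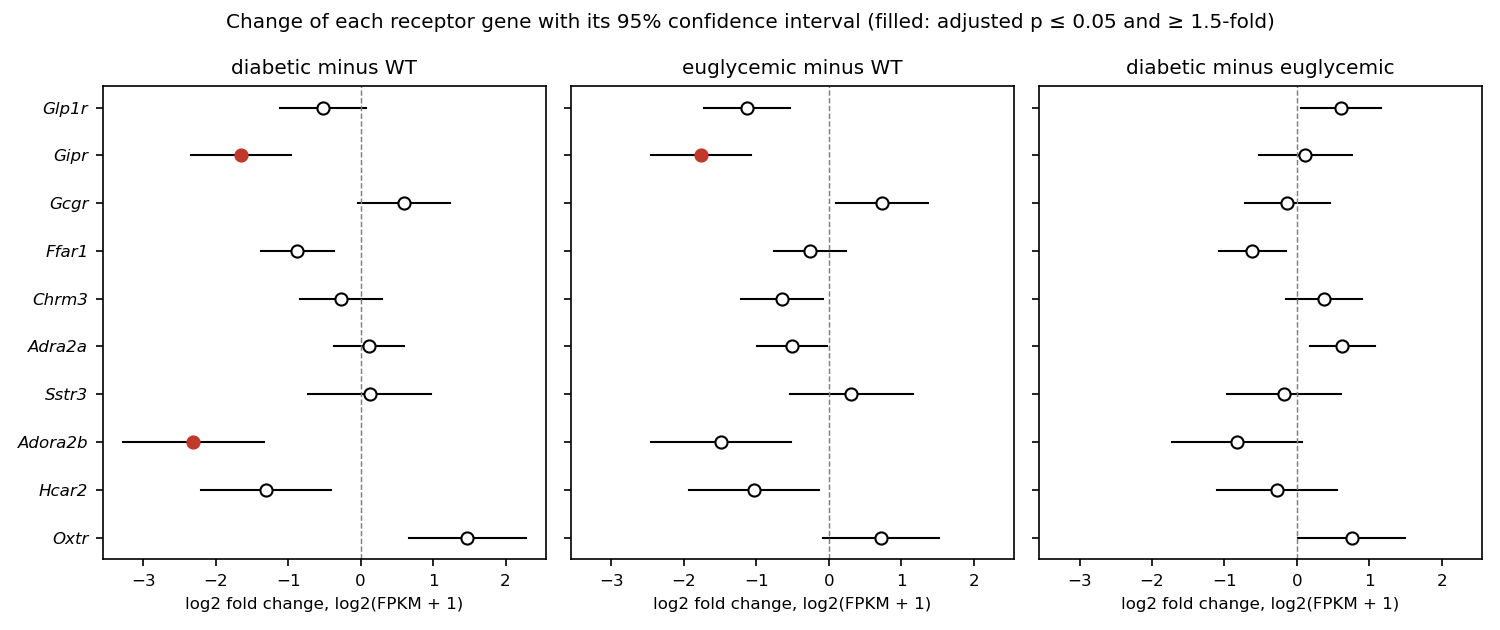
Log2 fold change of each receptor gene on the log2(FPKM + 1) scale (horizontal axis) with its 95% confidence interval, for diabetic against WT, euglycemic against WT and diabetic against euglycemic βRapKOGFP. Filled points mark genes past the test, *Gipr* and *Adora2b* in the first panel and *Gipr* in the second, and the intervals of *Sstr3* include 0 in all 3 panels.

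None of the 10 genes passed the test between diabetic and euglycemic βRapKOGFP (limma), a comparison in which 0.00889% of all genes were called. At an unadjusted p of at most 0.05, 3 were higher and 1 lower in diabetic βRapKOGFP, 4 in all, beside 20.6% of all genes in either direction. *Adra2a* (log2 fold change 0.63, SE 0.21, adjusted p = 0.149), *Glp1r* (0.61, SE 0.25, adjusted p = 0.208) and *Oxtr* (0.75, SE 0.34, adjusted p = 0.235) were higher in diabetic libraries. *Ffar1* was lower (−0.62, SE 0.21, adjusted p = 0.160). Only for *Glp1r* did the libraries of both mutant groups not overlap, with all 4 diabetic libraries higher (6.85% of all genes). The estimate for *Gcgr* was −0.13 (95% confidence interval −0.72 to 0.45). After rescaling to TPM the median over all genes in this comparison moved from 0.0088 to 0.14. On that scale *Adra2a* was at 0.76, *Glp1r* at 0.73, *Oxtr* at 1.16 and *Ffar1* at −0.55, all in the direction given above.

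Some receptor genes had their highest or lowest level in the same library of each group. The library with the highest *Adora2b* was the one with the highest *Hcar2* and the lowest *Gcgr*, *Adra2a* and *Sstr3*, namely WT replicate 1, diabetic replicate 4 and euglycemic replicate 3. In these libraries *Adora2b* was at 115, 21.5 and 35.0 FPKM, *Hcar2* at 15.6, 3.88 and 11.1, and *Sstr3* at 13.4, 18.7 and 21.2. WT replicate 1 was also the lowest WT library for *Glp1r*, *Gipr*, *Ffar1*, *Chrm3* and *Oxtr*. The summed FPKM of 8 immediate early genes (such as *Fos* and *Egr1*, which respond within minutes to stimulation or stress) was 1179 in WT replicate 1 against 3236 and 2873 in the other two. It was 927 in euglycemic replicate 3, the lowest of its group (987 to 4793 in the others), and 1038 in diabetic replicate 4 (976 to 1664 in the others). Diabetic replicate 4 and euglycemic replicate 3 had the highest pancreatic polypeptide cell sums of their groups (12979.7 and 14238), while WT replicate 1 had the lowest of its group (513). The acinar sum of diabetic replicate 4 was 15.8, while the rest of its group had 1049 to 2258. It was 15.4 in euglycemic replicate 3, next to the lowest of its group (14.7), and 3.48 in WT replicate 1, the lowest of its group. The pattern was seen after the values were known, and the part of these cells in it was not tested.

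**Figure D3:**
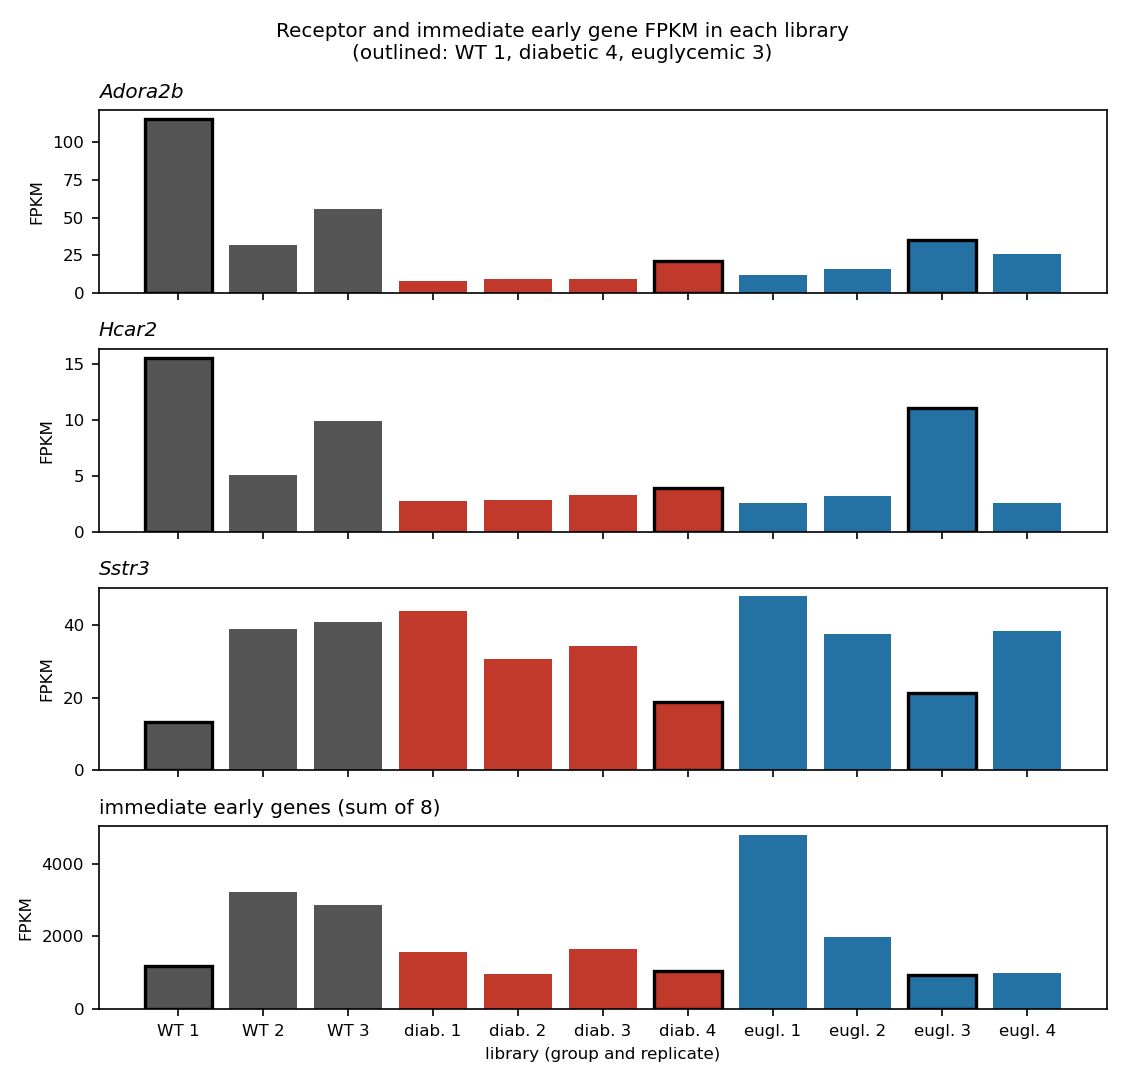
FPKM of *Adora2b*, *Hcar2* and *Sstr3* and the summed FPKM of 8 immediate early genes in each library (horizontal axis; grey WT, red diabetic, blue euglycemic). The outlined libraries (WT replicate 1, diabetic replicate 4, euglycemic replicate 3) have the highest *Adora2b* and *Hcar2* and the lowest *Sstr3* of their group.

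The genes through which these receptors signal were described from lists. Of 74 signalling genes 51 were expressed enough to be tested, and of 81 other receptor genes 21. None passed the test in any comparison (limma). At an unadjusted p of at most 0.05, 7 of the 51 signalling genes were higher and 2 lower in diabetic against WT, and 3 were higher and 5 lower in euglycemic against WT. These counts, and those by role that follow, are to be read beside the shares of all genes at that p given above, 6.15% higher and 5.74% lower in diabetic and 7.33% higher and 6.52% lower in euglycemic against WT, and 20.6% in either direction between the mutant groups. In diabetic against euglycemic βRapKOGFP 8 of 51 were at that p, all higher, with a median log2 fold change of the 51 of 0.13 beside 0.0088 over all genes (0.25 beside 0.14 with TPM). The 20.6% counts both directions together. Numbers higher in this comparison, here and by role below, thus have no share of their own and are a description. Among the 21 other receptor genes, to be read beside the same shares, the counts were 2 higher and 2 lower in diabetic against WT, 2 and 3 in euglycemic against WT, and 2 and 3 in diabetic against euglycemic βRapKOGFP. The 2 higher in diabetic against WT were *Ptger3* and *Adora2a*, with WT means of 0.331 and 0.342 FPKM, below the 1 FPKM of the filter. The same holds for *Gnal* (0.146) and *Gna14* (0.678) among the 7 higher signalling genes. Such genes were tested largely because of their mutant libraries, so these counts of higher genes are a description.

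By role, 18 of 32 cAMP pathway genes were tested, with 2 higher in diabetic and 1 lower in euglycemic βRapKOGFP against WT at that p and 4 higher in diabetic than in euglycemic libraries. The gene with the largest change of both mutant groups together was *Gnal*, an α-subunit that stimulates adenylyl cyclase (0.146 ± 0.0168 FPKM in WT, 1.13 ± 0.242 in diabetic and 0.834 ± 0.867 in the euglycemic libraries), which entered the test only through mutant libraries. Of 18 Gq and phospholipase C genes 14 were tested, with 3 higher in diabetic, 1 higher and 1 lower in euglycemic βRapKOGFP against WT, and 4 higher in diabetic than in euglycemic libraries. *Dgka*, which phosphorylates diacylglycerol, was at 2.27 ± 0.360, 4.94 ± 1.63 and 4.59 ± 1.23 FPKM in WT, diabetic and euglycemic libraries (log2 fold change of both groups together 0.79, limma adjusted p = 0.125), without overlap between WT and mutant libraries (1.9% of all genes were higher in this way). Of 8 Gi/o subunit and potassium channel genes 6 were tested, with 1 lower in each mutant group, *Gnai1*, an inhibitory α-subunit. *Gnai1* was at 17.6 ± 7.51, 6.79 ± 2.90 and 8.40 ± 3.68 FPKM (−1.11, adjusted p = 0.159). Of 16 genes of receptor desensitization and RGS proteins 13 were tested, with 2 higher and 1 lower in diabetic and 2 higher and 2 lower in euglycemic βRapKOGFP. The receptor kinase gene *Grk5* was at 4.63 ± 0.356, 2.15 ± 1.34 and 2.17 ± 1.39 FPKM (−0.91, adjusted p = 0.199), with all mutant libraries below all WT libraries (1.78% of all genes).

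Among other receptors, 3 of 26 peptide hormone receptor genes were tested, with 1 lower in euglycemic βRapKOGFP at an unadjusted p of at most 0.05. This was *Vipr1*, a class B receptor of vasoactive intestinal peptide, at 6.06 ± 2.98 FPKM in WT, 4.45 ± 1.07 in diabetic and 2.65 ± 0.776 in the euglycemic libraries. Of 23 other fatty-acid, lipid and metabolite receptor genes 13 were tested, with 1 higher and 1 lower in diabetic and 2 higher and 1 lower in euglycemic βRapKOGFP against WT, and 2 higher and 3 lower in diabetic than in euglycemic libraries. The largest change of both mutant groups together was that of the prostaglandin E receptor gene *Ptger3*, at 0.331 ± 0.244, 3.38 ± 1.92 and 2.29 ± 3.22 FPKM, which likewise entered the test only through mutant libraries. *Casr*, the calcium-sensing receptor gene, which was singled out after its values were seen, was at 3.89, 6.21 and 9.61 FPKM in WT, 11.1, 7.75, 11.3 and 5.96 in diabetic and 3.96, 3.76, 3.02 and 1.35 in euglycemic libraries. Its diabetic libraries were all above its euglycemic libraries, as for 6.85% of all genes (1.34, SE 0.30, limma adjusted p = 0.122). Of 32 other neurotransmitter and purine receptor genes 5 were tested, with 1 higher and 1 lower in diabetic and 1 lower in euglycemic βRapKOGFP. The A1 adenosine receptor gene *Adora1*, Gi-coupled where *Adora2b* is Gs-coupled, was at 2.36 ± 0.757 FPKM in WT, 1.13 ± 0.344 in diabetic and 1.16 ± 0.150 in the euglycemic libraries (−0.63, adjusted p = 0.177), with all mutant libraries below all WT libraries (1.78% of all genes).

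**Figure D4:**
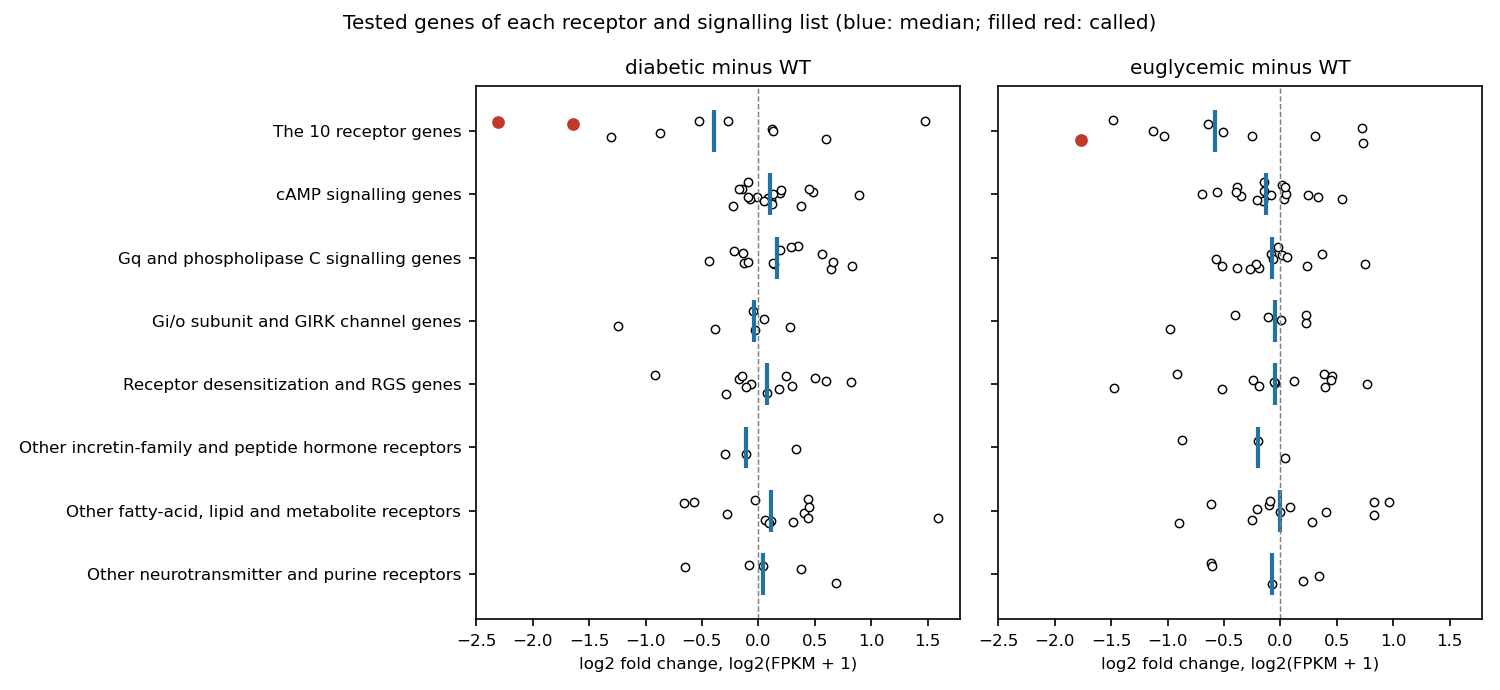
Log2 fold change on the log2(FPKM + 1) scale (horizontal axis) of the 10 receptor genes and of the tested genes of each list, for diabetic and euglycemic βRapKOGFP against WT, with the median in blue and genes past the test in red. Red points occur only among the 10 receptor genes, 2 in diabetic and 1 in euglycemic βRapKOGFP.

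Over the 11 libraries, the genes whose log2(FPKM + 1) was most like that of *Gipr* were *Ccnb2* (Pearson r = 0.942), *Slc2a2* (0.940) and *Phactr1* (0.926). *Slc2a2*, the glucose transporter gene of β-cells, had a mean of 75.6 FPKM in WT, 17.5 in diabetic and 21.7 in the euglycemic libraries. Most like *Glp1r* were *Abca7* (0.962), *Peg3* (0.957) and *Insrr* (0.953), of which *Insrr*, which encodes a receptor related to the insulin receptor, had means of 58.2, 39.4 and 25.4 FPKM in the same order. Most like *Adora2b* were *Atp4a* (0.947), *Cda* (0.943) and *Zswim7* (0.931). These are the highest of 11251 genes, and the libraries share their groups.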

How the data were processed

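GFP-sorted β-cells gave 3 WT, 4 diabetic and 4 euglycemic βRapKOGFP libraries. Per the labels and the methods, polyadenylated RNA was read as paired ends and mapped to mm10, and the authors deposited 1 FPKM value per gene and library. The methods name Tophat and Cufflinks and the submitters' processing notes name HISAT2 2.0.4, StringTie 1.3.0 and edgeR, so the tool that made the values is not certain. The implant is called a pellet in the labels and a pump in the methods. Of 34745 entries 34267 were matched to a symbol, 17 with a repeated symbol were left out and 478 had no symbol and were kept by their identifier. Gene positions are those of GENCODE vM21 (GRCm38), and no exon base of the 10 genes lies in another gene.

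Low FPKM values of 4490 single-exon genes of at least 500 bases were whole multiples of 1 step in 92.3 to 97.1% of cases (tolerance 0.02, up to 20 fragments), which gave the depth; 1 fragment on 1 kilobase equals 0.0600 to 0.105 FPKM. No 2 libraries were identical. Of 4100 genes at 5 FPKM or more in all other libraries, 1 was listed at 0 in euglycemic replicate 4, as was 1 of 3933 in WT replicate 2.

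Log2(FPKM + 1) of the 11251 genes with at least 1 FPKM in at least 3 libraries was fitted with limma 3.58.1 in R 4.3.3 (lmFit, eBayes with trend, group only), with p adjusted over all of them (Benjamini-Hochberg). Fold changes on this scale understate those of low genes. The fit was tested on simulated data. Nothing states whether a library is 1 mouse or a pool, so p measures the spread between libraries. Python 3.11.15 and scipy 1.17.1 were used for the rest.

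The 10 genes and the lists were chosen with earlier results of these data known. Named beyond the 10 were the tested gene of each list with the largest change of both mutant groups together and the 3 genes most correlated with *Glp1r* and with each called gene. *Casr*, *Ffar2*, *Ffar3*, *Adora2a* and *Gna14* were added outside this rule, after their values were seen. Alternatives were another pseudocount or filter, TPM, median of ratios, only the groups compared, library weights, a replicate block and each library left out.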

Additional observations from a re-analysis of the deposited data

Results flagged for a closer look

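In 3 of 20 groups of 4 libraries tested (10 genes in 2 mutant groups), 1 library lay farther from the other 3 than Dixon's 95% criterion allows, and chance gives this in about 1 in 20 groups. *Chrm3* was at 0.144 FPKM in euglycemic replicate 4, beside 0.958 to 1.06 in the other 3. *Adora2b* was at 21.5 FPKM in diabetic replicate 4, beside 8.11 to 9.41. *Hcar2* was at 11.1 FPKM in euglycemic replicate 3, beside 2.56 to 3.21. The cause of these values was not tested.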

How the results depend on the processing

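Of the fold changes of the 10 genes recomputed under the alternatives, 706 kept their direction and side of the threshold, 38 were no longer past it, 25 came past it and 21 changed sign; the cause was not tested. In diabetic against WT, 2 receptor genes were called, and the count was 0 with no filter (27403 genes tested), 1 with TPM (*Adora2b*), 1 with the replicate block (*Adora2b*), 5 with library weights (*Glp1r*, *Gipr*, *Ffar1*, *Adora2b*, *Oxtr*) and 0 to 4 leaving out 1 library (0 without WT replicate 3 or diabetic replicates 1, 2 or 3; 1 without WT replicates 1 or 2; 4 without euglycemic replicate 4). In euglycemic against WT the count of 1 became 0 with no filter, 0 with only the groups compared, 0 with the replicate block, 5 with library weights (*Glp1r*, *Gipr*, *Gcgr*, *Adora2b*, *Oxtr*), 0 to 2 leaving out 1 library (0 without WT replicates 2 or 3, diabetic replicate 3 or euglycemic replicates 2 or 3; 2 without WT replicate 1) and 3 without both WT replicate 1 and euglycemic replicate 4, a setting chosen after seeing the data. In diabetic against euglycemic it was 0, 2 with library weights (*Glp1r*, *Ffar1*), 1 without those 2 libraries (*Ffar1*) and 0 leaving out any 1 library. For both mutant groups the 2 genes became 1 with pseudocount 0.1 (*Gipr*), 0 with no filter, 0 with the replicate block, 5 with library weights and 0 to 3 leaving out 1 library (0 without WT replicate 3; 1 without WT replicate 2, any of diabetic replicates 1 to 3 or euglycemic replicates 1 or 2; 3 without euglycemic replicates 3 or 4). Same-numbered libraries did not deviate together (mean correlation −0.132 over 10 pairs, 0.0433 over 30 others), so the numbers were not taken to pair them; with the block the adjusted p of *Gipr* was 0.119 in diabetic and 0.139 in euglycemic against WT.

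Among fold changes that never passed the test, the sign changed for *Adra2a* in diabetic against WT (−0.014 to 0.32 leaving out 1 library, −0.014 without both libraries) and in both groups (−0.33 to 0.0069), for *Sstr3* in diabetic (−0.38 to 0.40; −0.21 with weights, −0.38 without both), euglycemic (−0.19 to 0.58; −0.083 with weights, −0.24 without both) and both groups (−0.28 to 0.49; −0.15 and −0.31), and in diabetic against euglycemic for *Sstr3* (−0.41 to 0.043), *Gipr* (−0.094 to 0.32; −0.025 with weights, −0.094 without both), *Gcgr* (−0.30 to 0.12) and *Hcar2* (−0.44 to 0.14).

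Over all genes tested, the 109 calls in diabetic against WT were 22 with no filter, 551 with weights, 45 with the block and 26 to 210 leaving out 1 library; the 62 in euglycemic against WT were 13, 2287, 20 and 12 to 536, 17 with only the groups compared and 1198 without both libraries; the 1 between the mutant groups was 0 in most settings, 6 with only the groups compared, 1212 with weights, 0 to 378 leaving out 1 library and 947 without both; and the 118 of both groups were 23, 1116, 53, 30 to 177 and 367. The split in diabetic against WT, 53 higher and 56 lower, was 49 and 28 with TPM, and that of both groups, 60 and 58, was 61 and 38. Low genes limit what can be seen, with 0 to 223 fragments behind *Oxtr* and 9 to 169 behind *Chrm3*.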
